A study of Rattus norvegicus with 4 samples.

Results

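Metallothionein 1 (Mt1), ceruloplasmin (Cp), transferrin (Tf) and the heavy chain of ferritin (Fth1) are 4 genes of metal binding and transport that were measured in rat liver by 6 of 1648 gene spots on 2-colour cDNA arrays. They were taken by name, as the spots whose only gene symbol in the platform annotation is one of these, and they make up 4 of 1174 features (named genes averaged over their spots, plus unnamed spots). Cp and Fth1 each had 2 spots, and Mt1 and Tf had 1 each. The genes were picked with earlier results on their mean log ratio known, so their values in that comparison are given as a description, with no test.

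Male Sprague-Dawley rats of 250 to 300 g were injected intraperitoneally with alpha-naphthylisothiocyanate (ANIT), a toxicant of the bile duct epithelium that causes cholestasis, at 75 mg/kg in olive oil (7.5 mg/mL), or with the same volume of olive oil. At 12 h the right lateral liver lobe was taken from 3 rats per treatment, and RNA was mixed within a treatment, so each treatment is represented by 1 pool. Both pools were hybridised together on each of 4 arrays. On arrays 1 and 3 ANIT RNA was the Cy5 sample, and on arrays 2 and 4 it was the Cy3 sample. The error given below is therefore that of repeated hybridisation and contains no variation between animals, and the number of arrays limits the precision.

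Each spot has 1 deposited log ratio per array. No source used here gives the base of its logarithm or which treatment is the numerator, so sizes are in log units. In the labels ANIT is channel 2 whichever dye it carried, and on that basis every array was read as having the same treatment in the numerator. This reading rests on the labels alone and is not settled. With ANIT as the numerator, a negative value would mean less transcript after ANIT, and with olive oil as the numerator, more. The mean over the 4 arrays (the mean log ratio) then holds the treatment difference. The part that changes sign with the labelling, called the dye component here, is the average over arrays of the value where ANIT carried Cy5 and of its negative where ANIT carried Cy3. If the ratio was instead always Cy5 over Cy3 or the reverse, the dye component would hold the treatment difference, so both are given throughout. Arrays of opposite orientation correlated between -0.91 and -0.88 over the gene spots, and arrays of the same orientation at 0.95. The median gene spot had a deposited value of -0.77 on array 1, 0.32 on array 2, -0.72 on array 3 and 0.30 on array 4. Centred values are those from which the median of the array has been subtracted. Ratios carry no level, so the liver markers could not be used to check the tissue, and fewer cells of a type cannot be told apart from less RNA per cell.

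Metallothioneins are small cysteine-rich proteins of the cytosol that bind zinc and copper, and in liver they are induced by metals, glucocorticoids and inflammation. Metals act through short metal response elements in the promoters. Ceruloplasmin is a copper-containing oxidase of plasma made by hepatocytes, which converts ferrous to ferric iron. Transferrin, also secreted by hepatocytes, carries ferric iron to cells. Ferritin is the intracellular shell that stores iron, and its heavy chain oxidises the iron that enters.

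Relative to the median gene spot, Mt1 and Cp lay on the negative side, Tf on the positive side and Fth1 slightly below 0. The mean log ratio was -0.70 ± 0.041 log units for Mt1, -0.27 ± 0.043 for Cp, 0.19 ± 0.040 for Tf and -0.067 ± 0.044 for Fth1 (limma SE, n = 4 arrays). Among the 1174 features in ascending order, these were at rank 2, rank 13, rank 1147 and rank 201.

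Mt1, the metal-binding protein itself, was nearly the same on all arrays as deposited, at -0.91, -0.93, -0.93 and -0.88 on arrays 1 to 4. The orientations overlapped. The span of these values was 0.053 log units, rank 7 in ascending order of the 1174 features, against a median span of 1.27. After centring, the values were -0.14, -1.25, -0.22 and -1.18, a span of 1.10 against a median span of 0.94. All 4 were negative, and the arrays with ANIT in Cy3 were lower than the others. Over all features, 2.81% had all 4 centred values on 1 side. For Mt1 this is no separate result, since its mean log ratio was known when the gene was picked. The mean as deposited was -0.91. Its rank is the same on both scales by construction, since centring moves the mean of every feature by the same amount. As a fold, the centred mean would be 1.62 for a logarithm of base 2, 2.01 for a natural one and 4.97 for base 10, and the deposited mean 1.88, 2.49 and 8.16.

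**Figure D1:**
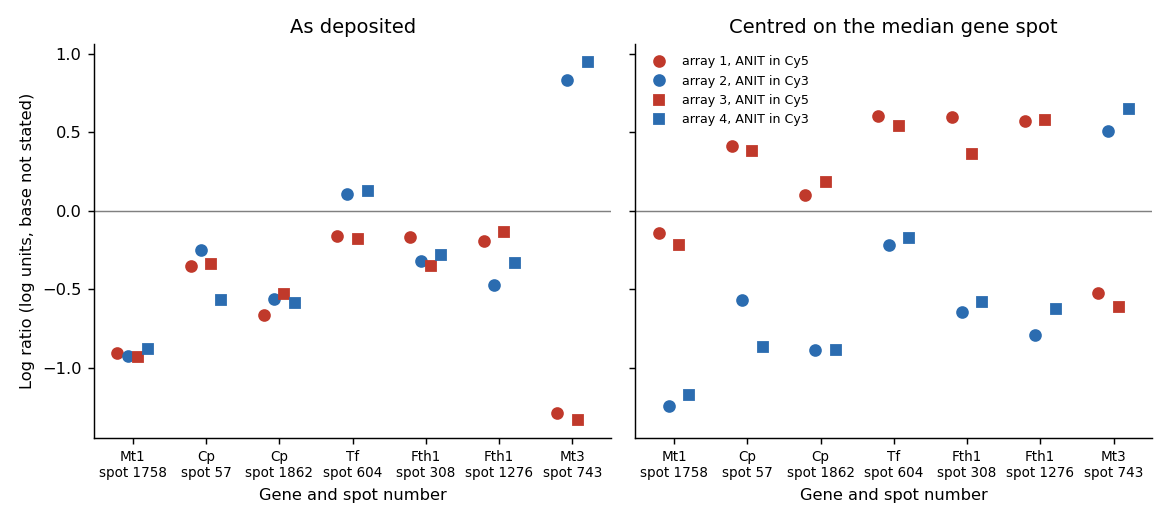
Log ratio (log units, base not stated) of each spot of Mt1, Cp, Tf and Fth1, and of the related gene Mt3, on the 4 arrays, as deposited (left) and centred on the median gene spot of the array (right). Red points are arrays with ANIT in Cy5 and blue points arrays with ANIT in Cy3. The 4 Mt1 values lie within 0.053 of each other as deposited, while Mt3 runs from -1.33 to 0.95. After centring, Mt1 spans 1.10 and Mt3 1.27.

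The promoters of Mt1 and Mt3 are shown because these 2 metallothionein genes had unlike values, and that of Cp because Cp lay on the same side as Mt1. Each line is the 250 bases before the gene start, from RefSeq on build GRCr8, 5′ to 3′ on the strand of the gene. Capitals mark matches on either strand to TGCACNC or TGCGCNC, which together spell the core of the metal response element. The windows are chr19:10832976-10833225 on the minus strand for Mt1, chr19:10856081-10856330 on the minus strand for Mt3 and chr2:104368420-104368669 on the plus strand for Cp.
Mt1: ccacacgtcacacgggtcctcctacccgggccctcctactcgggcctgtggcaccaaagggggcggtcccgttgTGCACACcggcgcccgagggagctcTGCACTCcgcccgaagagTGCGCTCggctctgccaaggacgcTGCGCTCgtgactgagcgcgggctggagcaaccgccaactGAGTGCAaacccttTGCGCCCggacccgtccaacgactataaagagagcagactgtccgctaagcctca
Mt3: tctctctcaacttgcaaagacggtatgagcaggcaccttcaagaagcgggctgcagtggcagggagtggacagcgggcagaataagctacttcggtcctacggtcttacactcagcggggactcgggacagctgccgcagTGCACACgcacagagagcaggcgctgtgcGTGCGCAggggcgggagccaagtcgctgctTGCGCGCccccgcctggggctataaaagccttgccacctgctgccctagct
Cp: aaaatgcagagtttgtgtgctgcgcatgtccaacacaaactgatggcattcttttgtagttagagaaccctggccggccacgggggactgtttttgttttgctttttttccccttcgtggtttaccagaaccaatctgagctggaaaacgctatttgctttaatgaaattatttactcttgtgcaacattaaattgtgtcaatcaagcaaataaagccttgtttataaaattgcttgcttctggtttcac

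Mt1 had 6 matches, from position -176 to position -49 relative to the start, and 9 of 33469 rat windows of this length (0.0269%) had at least as many. Mt3 had 3, and 1.17% of windows had at least as many. Mt4, a further metallothionein whose window is not printed, had 1, and 20.6% of windows had at least as many. Tf, also not printed, had 2, and 4.90% of windows had at least as many. Cp had 0, as did 79.4% of windows. No 2 matches overlapped in these windows. A match describes the letters and is not a measured binding site. Whether the matches bear on the log ratios was not tested. Windows were matched by symbol for 3 of the 4 genes, all but Fth1.

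Other metallothioneins on the array did not stand where Mt1 did. Mt3, known mainly from brain, was at 0.0046 ± 0.044 log units (adjusted p = 0.967 in limma) and Mt4, known from stratified epithelia, at -0.073 ± 0.058 (adjusted p = 0.559). As deposited, Mt3 was at -1.29, 0.83, -1.33 and 0.95 on arrays 1 to 4, negative where ANIT carried Cy5 and positive where it carried Cy3. Whether the cDNA of the Mt1 spot also bound transcripts of Mt2A, a close relative not analysed here, was not tested.

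Cp, the copper-carrying plasma oxidase, had 2 spots that differed in size and shared their side. Spot 57 was at 0.41, -0.57, 0.38 and -0.87 on arrays 1 to 4 after centring, and spot 1862 at 0.10, -0.89, 0.18 and -0.88. On both, the arrays with ANIT in Cy5 were above 0 and those with ANIT in Cy3 below. The mean log ratio was -0.16 for spot 57 and -0.37 for spot 1862. As deposited the values were -0.35, -0.25, -0.34 and -0.57 for spot 57 and -0.66, -0.56, -0.53 and -0.59 for spot 1862, all negative. The gap of 0.21 between the means was larger than in 92.0% of the 261 genes with 2 spots, whose median gap was 0.068. Spot 57 was the less negative on all 4 arrays, by 0.31, 0.31, 0.20 and 0.019. The dye components of the spots, 0.56 and 0.51, were close, with a gap of 0.044 against a median of 0.26. As a fold, the mean of Cp would be 1.20 for base 2, 1.31 for a natural logarithm and 1.85 for base 10 after centring, and 1.40, 1.62 and 3.04 as deposited.

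Tf, the iron carrier of plasma, was at 0.60, -0.22, 0.54 and -0.17 on arrays 1 to 4 after centring. It was at -0.16, 0.10, -0.18 and 0.13 as deposited, so the sign of each array turned with the centring. Its mean was 0.19 after centring and -0.028 as deposited, where the median of all features was -0.21. The orientations did not overlap on either scale. Tf thus lay above most features, a place that subtracting 1 median per array cannot change, while its side of 0 depended on the centre chosen. The centred mean would be a fold of 1.14 for base 2, 1.21 for a natural logarithm and 1.54 for base 10, and the deposited mean one of 1.02, 1.03 and 1.07 in the opposite direction.

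Fth1, the iron-oxidising chain of ferritin, gave nearly the same mean on its 2 spots, -0.066 for spot 308 and -0.068 for spot 1276. This gap of 0.0015 was larger than in 1.92% of genes with 2 spots. Spot 308 was at 0.60, -0.64, 0.36 and -0.58 after centring and spot 1276 at 0.57, -0.79, 0.58 and -0.63, positive with ANIT in Cy5 and negative with ANIT in Cy3. As deposited, all 8 values were negative, from -0.47 to -0.14. The mean of Fth1 as deposited was -0.28, where the median over all features was -0.21.

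In the dye component the 4 genes lay above most features, with between 75.1% and 94.7% of features below them. After centring it was 0.52 ± 0.041 for Mt1, 0.53 ± 0.043 for Cp, 0.38 ± 0.040 for Tf and 0.59 ± 0.044 for Fth1 (limma SE, n = 4 arrays). All 4 passed on the positive side (adjusted p between 2.01e-06 and 1.63e-05 in limma), where 40.6% of features passed on that side and 86.5% in either direction. As deposited, without centring, it was -0.0093 for Mt1 and 0.010 for Cp (adjusted p = 0.816 and 0.835 in limma), 0.070 for Fth1 (adjusted p = 0.125) and -0.14 for Tf (adjusted p = 0.0066). Thus 1 of 4 passed there, against 80.9% of all features. The median of all features on that scale was -0.57. Centring raised the dye component of every feature by the same 0.52, since the array medians differed between the orientations. Of the 1174 features, 210 lay within 0.1 of 0 in the dye component as deposited, Mt1, Cp and Fth1 among them. Their median mean log ratio as deposited was -0.24, and 1 of the 210 lay below Mt1, 9 below Cp and 74 below Fth1.

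**Figure D2:**
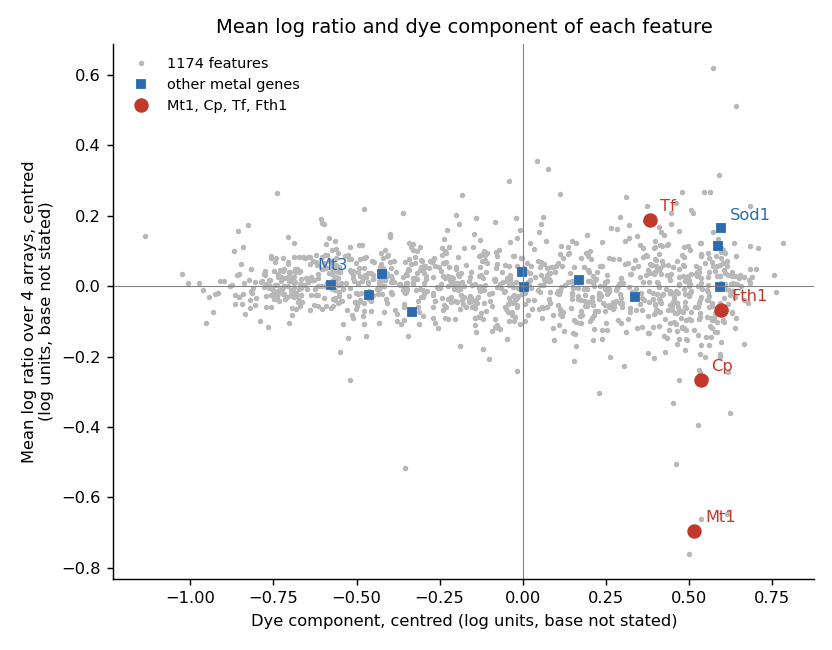
Mean log ratio over 4 arrays against the dye component, both centred (log units, base not stated), for 1174 features in grey, with Mt1, Cp, Tf and Fth1 in red and 11 other metal genes in blue. Mt1 at -0.70 and Cp at -0.27 lie below most features of a like dye component, and Tf at 0.19 above.

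The 4 genes were also set against features with a like dye component. Among the 100 features nearest in dye component, 1 lay below Mt1 in the mean log ratio, 4 below Cp, 33 below Fth1 and 99 below Tf. The medians of these sets lay between -0.029 and 0.010. Relative to them, the means were -0.68 for Mt1, -0.24 for Cp, 0.18 for Tf and -0.059 for Fth1. This comparison was added after the data were examined.

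Differences between the genes within an array do not depend on the single median by which the array is centred. Mt1 was lower than Tf by 0.75, 1.03, 0.75 and 1.01 log units on arrays 1 to 4, a mean difference of -0.88 ± 0.16 (SD, n = 4). Mt1 was also below Fth1 on every array, at -0.63 ± 0.095, and below Cp, at -0.43 ± 0.099. Cp was below Tf on every array, at -0.45 ± 0.20. Fth1 lay nearer to Cp and to Tf than it did to Mt1. Cp minus Fth1 was -0.33, -0.0092, -0.19 and -0.27 on arrays 1 to 4, and array 2 thus showed nearly no difference. Tf minus Fth1 was 0.017 and 0.066 where ANIT carried Cy5 and 0.50 and 0.43 where it carried Cy3, a mean of 0.25 ± 0.25, about as large as its spread. From low to high the order was Mt1, Cp, Fth1, Tf.

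**Figure D3:**
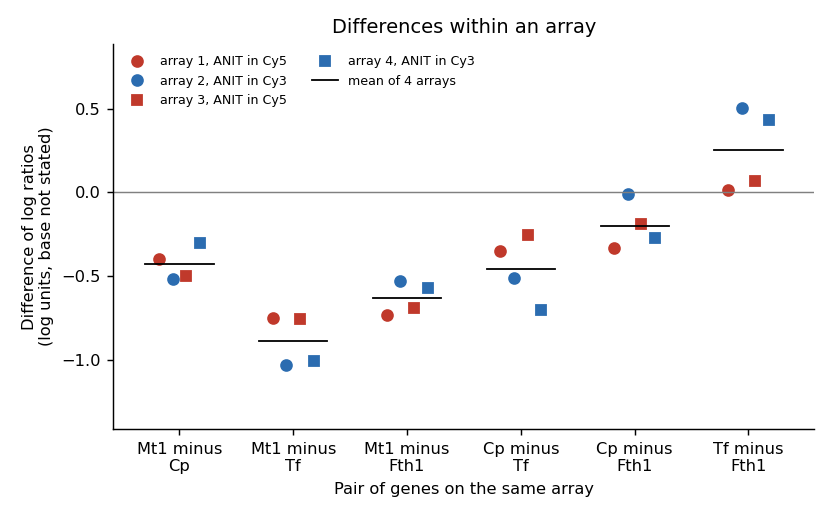
Difference in log ratio between pairs of the 4 genes on the same array (log units, base not stated), with arrays coloured by the dye that ANIT carried and a black line at the mean of the 4 arrays. Mt1 lies below Cp, Tf and Fth1 on every array, and Tf minus Fth1 is near 0 on arrays 1 and 3.

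Turning the signs of arrays 2 and 4, which corresponds to a ratio of fixed dyes, gave other values. The treatment difference would then be 0.52 for Mt1, 0.53 for Cp, 0.38 for Tf and 0.59 for Fth1 relative to the median gene spot, all on 1 side. Differences between the genes would be small, such as -0.019 between Mt1 and Cp, and the largest, Tf minus Fth1, -0.21. Without centring, the treatment difference would be -0.0093 for Mt1, 0.010 for Cp, -0.14 for Tf and 0.070 for Fth1.

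Other genes of metal handling were taken from a list of 77 symbols, alternative names included, of which 15 were measured, 11 of them beside the 4 genes above. None of the 11 passed in the mean log ratio in limma, where 3.92% of features did, and 2 had an unadjusted p under 0.05. Their median was 0.0046, against 0.0042 over all features. In the dye component 9 of 11 passed, 5 positive and 4 negative, where 86.5% of features did (40.6% positive, 45.8% negative).

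Among copper genes, the superoxide dismutase Sod1, a copper and zinc enzyme, was at 0.17 ± 0.042 (adjusted p = 0.0739 in limma). It was at 0.80, -0.49, 0.73 and -0.37 on arrays 1 to 4. Sod1 passed when medians were subtracted per print block (0.19, adjusted p = 0.0426 in limma), with equal spread on each array and without array 2, and it was at -0.049 as deposited. The extracellular dismutase Sod3 was at 0.033, the copper importer Slc31a1 at -0.032 and Ccs, the chaperone that loads copper into Sod1, at -0.0016. Among iron genes, Pcbp2, an RNA-binding protein that also delivers iron, was at 0.11 ± 0.039 (adjusted p = 0.167 in limma). Aco1, the cytosolic aconitase that doubles as an iron-regulatory protein and binds ferritin mRNA, was at -0.0016, and Bmp6, the signal that induces hepcidin, at 0.040. Of the haem genes, the haem oxygenase Hmox2 was at -0.024 and the biliverdin reductase Blvra at 0.018. As deposited all 11 genes were negative and 10 passed, where 90.0% of features passed on that side. The transferrin receptor, the ferritin light chain, hepcidin and the inducible haem oxygenase were not analysed here.

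**Figure D4:**
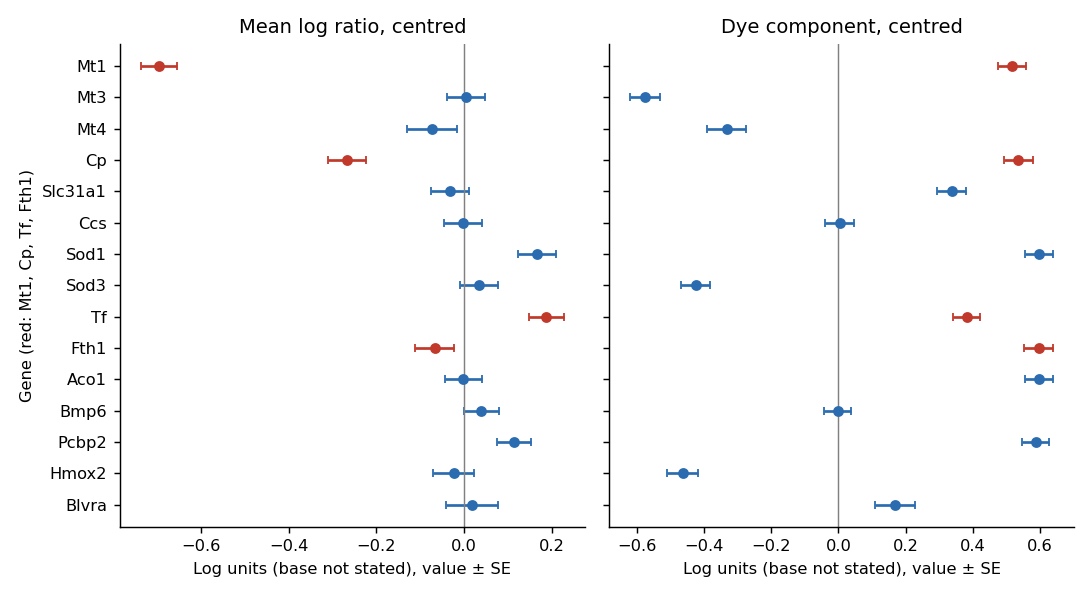
Mean log ratio (left) and dye component (right) of the 15 measured metal genes, centred, as value ± limma SE over 4 arrays (log units, base not stated). Mt1, Cp, Tf and Fth1 are red. In the mean, Mt1 at -0.70 lies apart from the others, which span -0.27 to 0.19.

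The genes whose 4 centred values came nearest to each member were found by the root mean square distance over the 4 arrays, among 954 other named genes. For Mt1 they were Sytl1 at a distance of 0.12, Hipk3 at 0.22 and Dtymk at 0.30, against a median of 0.92. For Cp they were Sqstm1 at 0.062, Uox at 0.068 and Mx2 at 0.073, against 0.67. For Tf they were the plasma carrier Ttr at 0.052, Cyb5a at 0.059 and the acute phase glycoprotein Orm1 at 0.065, against 0.50. For Fth1 they were Pfn1 at 0.032, Clu at 0.044 and Fkbp1a at 0.047, against 0.67. Between members, Cp and Fth1 were nearest, at 0.23, and Mt1 and Tf farthest, at 0.89. A distance over 4 arrays describes likeness of values and no more.

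The array measured 2 of 15 listed myeloid and lymphoid markers and 2 of 8 bile duct markers. It measured 5 of 12 endothelial and stellate, 1 of 7 erythroid and platelet and 4 of 10 hepatocyte markers. Among markers of cells other than hepatocytes, 0 passed in the mean log ratio in limma, where 3.92% of all features did. So few markers cannot show a difference from that share. Of the 2 myeloid and lymphoid markers measured, Fcgr2b at -0.12 had an unadjusted p under 0.05. The 2 bile duct markers were at -0.065 and -0.010, the 5 endothelial and stellate markers between -0.095 and 0.0080, and 1 platelet marker, Pf4, at 0.0098. Of 4 hepatocyte markers, the plasma carrier Ttr, at 0.23, passed (adjusted p = 0.0199 in limma), Apob was at 0.14, Serpina1 at 0.046 and Apoa1 at -0.095. In the dye component the 2 bile duct markers, at -0.75 and -0.68, both passed on the negative side. Of the 5 endothelial and stellate markers 1 passed positive and 3 negative, and of the 4 hepatocyte markers 3 positive and 1 negative. The 2 myeloid and lymphoid markers passed 1 on each side, and Pf4 passed on the negative side. Over all features, 40.6% passed positive and 45.8% negative. The part of these cell types in the values of Mt1, Cp and Tf was not tested.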

How the data were processed

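The deposited table holds 1 log ratio for each of 1936 spots and 4 arrays, with 0 missing. For scanner, background correction, normalization, filters, base and direction, the entry is: not given in the sources used here. Spots lie in 16 blocks of 121. At 18 positions per block no spot was annotated in any block, and these 288 spots were left out as controls. Of 1648 gene spots, 1432 had 1 symbol in the platform annotation, 19 had several genes and 197 had none. By Entrez identifier 1429 matched the rat gene table, with 0 symbols changed. Each array was centred on its gene-spot median and spots of 1 symbol were averaged, giving 1174 features.

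limma 3.58.1 (R 4.3.3; lmFit and eBayes, two-sided, Benjamini-Hochberg over all features, threshold 0.05) fitted a mean and a dye effect with 2 residual degrees of freedom, and was tested on simulated data. The genes and lists were chosen with earlier results of these data known. The rule named the 4 genes with every spot, each measured gene of the metal lists, and the 3 named genes nearest to each of the 4. Alternatives were values as deposited, print block centring, equal spread, no dye effect, single spots, control spots kept, turned signs, robust eBayes, a filter on missing values, which removed nothing, and each array left out. Figures used matplotlib 3.10.9.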

Additional observations from a re-analysis of the deposited data

Results flagged for a closer look

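The 27 genes checked were the 15 metal genes and the 12 genes nearest to the 4 in profile. Their 4 array values were checked for 1 array far from the others, on both scales (54 checks). The limit used would flag about 1 in 20 sets of 4 values from 1 population. Values that split by dye orientation, like those of Mt3, can hardly reach it, so this rate does not apply to them. An array beyond the limit was found once. Sqstm1, as deposited, was at -0.49, -0.50, -0.41 and -0.50 on arrays 1 to 4. Array 3, at -0.41, stood apart, with a gap of 0.85 of the whole range.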

How the results depend on the processing

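Robust eBayes leaves the mean log ratio unchanged by construction, and single spots can change it only for Cp and Fth1. Keeping control spots moved every mean by the same small amount. The mean log ratio of each of Mt1, Cp, Tf and Fth1 kept its side of 0 under these settings. It did so too under print block centring, equal spread, removal of the nearest features' median and each array left out. With 1 array left out it lay between -0.71 and -0.68 for Mt1, -0.30 and -0.23 for Cp, 0.17 and 0.20 for Tf, and -0.096 and -0.038 for Fth1. Values as deposited moved the mean to -0.91 for Mt1, -0.48 for Cp and -0.28 for Fth1 and turned Tf to -0.028. The dye component there was -0.0093 for Mt1, 0.010 for Cp, -0.14 for Tf and 0.070 for Fth1. Print block centring gave 0.25 for Tf, and single spots gave -0.16 (spot 57) and -0.37 (spot 1862) for Cp. The table holds ratios alone, and signal over background could not be judged. Each log ratio already compares both pools on the same array. No further pairing was used, since the 4 arrays form 1 group.

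In limma, 46 features passed in the mean log ratio. The number was 1061 as deposited, 87 with single spots, 102 with control spots kept, 0 without a dye effect, and between 28 (without array 3) and 86 (without array 2) with 1 array left out. The 11 other metal genes had 0 passing, 10 as deposited, 1 (Sod1) with print block centring, with equal spread and without array 2, and 1 spot, of Sod1, with single spots. In the dye component, 16 of their spots passed.

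Turning the signs of arrays 2 and 4 exchanges both components by construction. The mean then passed for 1015 features and 9 of the other metal genes, and the dye component for 46 and 0. The mean became 0.52 for Mt1, 0.53 for Cp, 0.38 for Tf and 0.59 for Fth1. The dye component became -0.70 for Mt1, -0.27 for Cp, 0.19 for Tf and -0.067 for Fth1. The mean of Tf thus kept its sign. Besides Mt1, Cp and Fth1, the means that changed sign were those of Mt3 (-0.58), Slc31a1 (0.34), Ccs (0.0037), Sod3 (-0.42), Aco1 (0.59), Bmp6 (-0.0018), Sytl1 (0.50), Hipk3 (0.46), Dtymk (0.53), Sqstm1 (0.55), Uox (0.53), Mx2 (0.47), Pfn1 (0.59), Clu (0.61) and Fkbp1a (0.63).

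As deposited, means changed sign for Mt3 (-0.21), Sod1 (-0.049), Sod3 (-0.18), Bmp6 (-0.18), Pcbp2 (-0.10), Blvra (-0.20), Cyb5a (-0.073) and Orm1 (-0.047). Print block centring did so for Mt3 (-0.0011), Slc31a1 (0.00056) and Ccs (0.020), equal spread for Mt3 (-0.014) and Aco1 (0.015), and single spots for Slc31a1 (0.0083) and Cyb5a (-0.079 and -0.0046). With 1 array left out, values near 0 spanned it, from -0.030 to 0.040 for Mt3, -0.073 to 0.0095 for Slc31a1, -0.039 to 0.036 for Ccs, -0.0038 to 0.071 for Sod3, -0.023 to 0.020 for Aco1, -0.063 to 0.015 for Hmox2 and -0.052 to 0.089 for Blvra. The cause of these changes was not tested.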
